A study of Homo sapiens with 12 samples.

Results

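The genes described here are 10 components of the TGF-beta and BMP signaling pathway: the receptor genes TGFBR1, TGFBR2, BMPR1A, BMPR1B and BMPR2, the SMAD genes SMAD2, SMAD3 and SMAD7, and the ubiquitin ligase genes SMURF1 and SMURF2. They were chosen by symbol. A region of enriched DNA belonged to a gene when the deposited annotation placed it inside the gene or at most 5000 bases upstream of one of its starts. By this rule 231 of 327931 regions of 5-hydroxymethylcytosine (5hmC) and 41 of 65535 listed regions of 5-methylcytosine (5mC) belonged to the 10 genes. All 10 genes had a 5hmC region and 9 had a listed 5mC region. Nearest to the limit of 5000 bases, a SMURF2 region 4815 bases upstream was inside it, with 2.29 CPM (reads scaled to a common library total) of 5hmC in differentiated and 3.04 in undifferentiated cells. A SMAD3 region 5196 bases upstream was outside it, with 1.27 in differentiated and 0.758 in undifferentiated cells.

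Ligands of the TGF-beta family bring together type II receptors (TGFBR2, BMPR2) and type I receptors (TGFBR1, BMPR1A, BMPR1B), which are serine/threonine kinases. Type I receptors phosphorylate receptor-regulated SMADs, SMAD2 and SMAD3 on the TGF-beta and activin branch, which enter the nucleus with SMAD4 and act on transcription. SMAD7 is an inhibitory SMAD that recruits SMURF1 and SMURF2 to the receptors, and the SMURFs mark receptors and SMADs for breakdown. In myeloid cells TGF-beta signaling is known as a regulator of growth and maturation.

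HL-60 cells, an established line from a human promyelocytic leukemia, take on features of neutrophils in dimethyl sulfoxide (DMSO). The differentiated group was grown for 7 days with 1.5% DMSO (211 mM) and sorted as viable CD11b-positive cells, and the undifferentiated group had no DMSO and was sorted as viable CD11b-negative cells. Each group had 3 biological replicates, and each DNA preparation was divided between immunoprecipitation of 5mC (MeDIP) and of 5hmC (hMeDIP), so the marks share their DNA. The question taken from the study's title is which signaling genes carry differences in these marks after differentiation. The groups differ in treatment and in the CD11b sort together, and all libraries come from 1 cell line.

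The 5hmC libraries held 13010267 to 32495733 counts in differentiated and 15688562 to 33693880 in undifferentiated cells. The listed 5mC regions held 7940755 to 9670011 and 6076100 to 6851769 counts. The 5mC table is a selected list: the largest p-value in the authors' deposited table, for the same comparison of states, was 0.0165. Its regions were thus listed because they differed, and 5mC sums per gene add up such regions. Adjusted p-values of 5mC genes cover only the 12637 listed genes and can be too small. Values below are CPM after TMM scaling, which sets libraries level on the features between the extremes of change, and fold changes are log2 of differentiated over undifferentiated cells from edgeR's quasi-likelihood test with n = 3 per state. "Passed" means an adjusted p under 0.05 over the whole table. Antibody capture follows the amount of marked DNA, so the number of copies of a locus and its modification cannot be told apart in these tables. As a check on the line, MYC, known to be amplified in HL-60, had 83928 5hmC and 79768 listed 5mC counts over all 6 libraries, each in 1 region. CDKN2A, known to be lost in HL-60, still had 1 region in each mark, with 149 5hmC and 302 5mC counts, so its known loss was not borne out by an absence of counts.

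Promoters of BMPR1B, TGFBR1 and SMURF1, each with a region at or just upstream of a start that was higher in 5hmC after differentiation, are shown first with every CG in capitals, because CG is the site that both marks mainly occupy. They are the 250 bases upstream of a start in RefSeq (GRCh38.p14) and were not placed on the hg19 coordinates of the deposited regions. The lines give the most upstream of 3 BMPR1B starts at chr4:94757705-94757954 (plus strand), an internal BMPR1B start at chr4:94995590-94995839 (plus strand), the TGFBR1 start with the most CG at chr9:99105325-99105574 (plus strand), and the SMURF1 start at chr7:99144109-99144358 (minus strand).
BMPR1B upstream start: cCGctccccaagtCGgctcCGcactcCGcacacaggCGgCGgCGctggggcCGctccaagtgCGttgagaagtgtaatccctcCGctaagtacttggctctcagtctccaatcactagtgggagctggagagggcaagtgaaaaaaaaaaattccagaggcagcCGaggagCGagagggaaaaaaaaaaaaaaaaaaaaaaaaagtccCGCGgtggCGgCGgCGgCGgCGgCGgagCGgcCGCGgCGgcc
BMPR1B internal start: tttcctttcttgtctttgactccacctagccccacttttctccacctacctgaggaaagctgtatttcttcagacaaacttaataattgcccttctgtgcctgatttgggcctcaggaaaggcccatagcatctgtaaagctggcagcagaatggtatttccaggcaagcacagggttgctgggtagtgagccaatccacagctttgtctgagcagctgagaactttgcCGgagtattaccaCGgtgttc
TGFBR1: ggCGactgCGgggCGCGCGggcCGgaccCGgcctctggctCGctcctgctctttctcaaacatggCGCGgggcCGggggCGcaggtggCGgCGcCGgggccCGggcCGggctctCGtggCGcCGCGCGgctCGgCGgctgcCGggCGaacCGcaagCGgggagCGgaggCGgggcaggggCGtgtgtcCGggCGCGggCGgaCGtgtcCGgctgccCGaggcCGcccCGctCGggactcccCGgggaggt
SMURF1: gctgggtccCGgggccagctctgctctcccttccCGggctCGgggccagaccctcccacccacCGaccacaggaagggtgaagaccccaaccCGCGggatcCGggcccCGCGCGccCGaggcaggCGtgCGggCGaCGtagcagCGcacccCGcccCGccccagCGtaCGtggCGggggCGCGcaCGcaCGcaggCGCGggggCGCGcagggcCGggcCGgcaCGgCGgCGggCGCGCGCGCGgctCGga
These promoters held 24, 2, 42 and 40 CG, in the order of the lines. TGFBR1 promoters ranged from 0 to 42 CG, and which of them lies nearest its raised region was not worked out. The median over 35116 RefSeq promoters was 11. The palindromic SMAD-binding element GTCTAGAC, which reads the same on both strands, was in 0 of the 27 promoters of the 10 genes and in 0.182% of all promoters.

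At the level of whole genes, BMPR1B gained both marks in differentiated cells, and BMPR2 and SMURF2 lost both. The other genes changed in 1 mark, in opposite directions or in neither. This holds for TMM scaling as reported. The BMPR1B call in 5hmC was lost without TMM and with TMM on the regions of highest mean CPM alone. Under those scalings SMAD2, TGFBR2 and BMPR1A passed as lower in both marks. In 5hmC, 2 of the 10 genes were higher and 4 lower, while 25.7% of all genes were called higher and 25.8% lower. In 5mC, 3 of 9 genes were higher and 3 lower, against 41% and 43.2% of all listed genes. With so few genes these counts are given as a description only. Among their regions, 48 of 229 tested 5hmC regions were higher and 68 lower, with a background of 27% and 23.3%, and the median change was -0.29 on the log2 scale, against -0.04 over all regions. Of the 41 listed 5mC regions, 13 were higher and 10 lower, where 35.7% and 37.1% of all listed regions were. DESeq2 called 0 of these 41 higher and 1 lower. The 3 libraries of each state did not overlap for 1 gene higher and 4 lower in 5hmC (27.5% and 29.5% of all genes) and for 2 higher and 3 lower in 5mC (39% and 38.8%). Of the regions, 46 higher and 75 lower of 229 in 5hmC did not overlap (26.2% and 25.9% of all), and 19 higher and 16 lower of 41 in 5mC (43.1% and 43% of all listed).

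**Figure D1:**
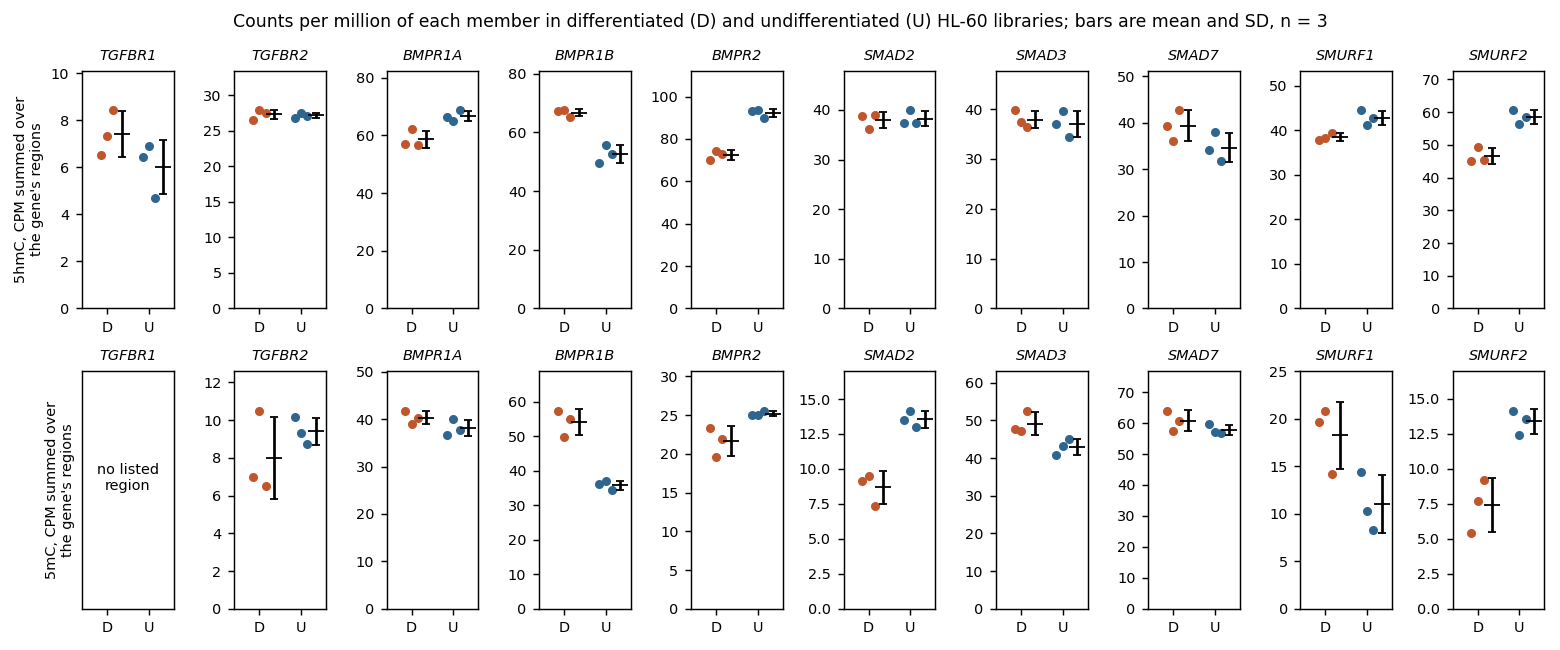
CPM summed over the regions of each gene (vertical axis, from 0) in 3 differentiated (D, left) and 3 undifferentiated (U, right) libraries, 5hmC above and 5mC below. Points are libraries and bars are the mean and SD. All 3 differentiated libraries lie above all undifferentiated ones for BMPR1B in both marks, and below them for BMPR2 and SMURF2 in both.

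The receptor genes BMPR1B and BMPR2, a type I and a type II receptor for BMPs, differed in opposite directions. For 5hmC, BMPR1B had 67.2, 67.5 and 65.3 CPM in differentiated libraries 1, 2 and 3, against 49.4, 55.7 and 52.6 CPM in undifferentiated libraries 1, 2 and 3. BMPR2 had 70.0, 74.5 and 72.9 CPM in differentiated libraries and 93.1, 93.6 and 90.0 CPM in undifferentiated ones. Neither gene had overlapping states. BMPR1B was higher by 0.34 ± 0.0558 (SE; adjusted p = 0.000299) and BMPR2 fell by 0.35 ± 0.0505 (adjusted p = 0.000144). Per kb of covered sequence, the level of 5hmC was 3.17 ± 0.0565 CPM at BMPR1B and 1.95 ± 0.0618 CPM at BMPR2 in differentiated cells (SD, n = 3). In undifferentiated cells the 2 genes stood at 2.50 ± 0.149 and 2.48 ± 0.0527 CPM per kb, a gap smaller than the SD.

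In 5mC, measured on the same DNA preparations, BMPR1B had 57.4, 49.9 and 54.9 CPM in differentiated and 36.1, 36.9 and 34.3 CPM in undifferentiated libraries, a rise of 0.60 ± 0.0699 (adjusted p = 5.39e-12). BMPR2 had 23.4, 19.6 and 21.9 CPM in differentiated and 25.0, 25.0 and 25.6 CPM in undifferentiated libraries, a difference of -0.21 ± 0.0945 (adjusted p = 0.0344). The BMPR2 call in 5mC was lost without differentiated library 2 or 3, without any 1 undifferentiated library, with a highest adjusted p of 0.157, and in DESeq2 (adjusted p = 0.115). The 5mC call of BMPR1B passed in every setting run, all of them on the selected list.

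How the libraries are scaled bears on the 5hmC rise of BMPR1B. Without TMM its change was 0.14 (adjusted p = 0.0900), and with TMM computed on strong regions alone, those of the highest mean CPM, it was 0.06 (adjusted p = 0.452). Under those scalings the median change over all genes was -0.19 and -0.27 in 5hmC, against 0.01 as reported. In 5mC it was -0.31 and -0.33, against 0.00. The BMPR1B call in 5hmC was kept with relative log expression scaling. The ratio of BMPR1B to BMPR2 counts within a library does not depend on scaling. It was chosen after its values were seen, from genes that differed in opposite directions, and cannot tell a BMPR1B rise from a BMPR2 fall. For 5hmC it was 0.959, 0.906 and 0.896 in differentiated libraries, against 0.531, 0.595 and 0.584 in undifferentiated libraries. For 5mC it was 2.46, 2.54 and 2.51 in differentiated libraries and 1.44, 1.48 and 1.34 in undifferentiated ones.

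**Figure D2:**
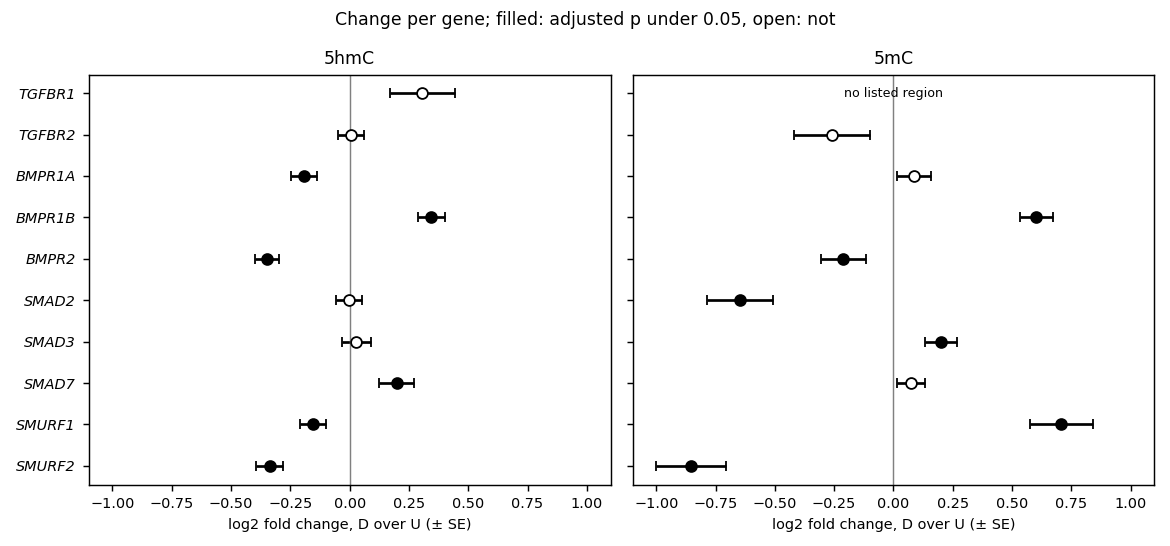
Log2 fold change per gene (horizontal axis, differentiated over undifferentiated, ± SE), 5hmC left and 5mC right; filled points passed and open points did not. BMPR1B lies right of 0 in both panels, and BMPR2 and SMURF2 lie left of 0 in both.

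Along BMPR1B, under TMM scaling, most called regions were higher. Of its 35 5hmC regions, 18 were higher and 3 lower, and of its 8 listed 5mC regions 6 were higher and 0 lower. BMPR2 had 46 5hmC regions, of which 2 were higher and 18 lower. For these and the region counts of other genes below, the background was 27% higher and 23.3% lower of all 5hmC regions. Of all listed 5mC regions it was 35.7% and 37.1%. In the deposited distances a region at a start, listed at distance 0, need not contain it. Of 3973 such 5hmC regions whose start could be inferred from regions upstream, 25.5% contained it and 66.3% began within 1000 bases downstream of it. The BMPR1B region at a start, in a CpG island at chr4:95679801-95680200 (hg19), began 672 bases downstream of the gene's outermost start and was the same interval in both marks. Its 5hmC was 4.17, 4.30 and 3.29 CPM in differentiated and 1.82, 1.64 and 1.57 CPM in undifferentiated libraries, a rise of 1.15 ± 0.181 (adjusted p = 3.33e-06). Its 5mC was 5.29, 3.44 and 3.20 CPM in differentiated and 1.75, 1.35 and 2.16 CPM in undifferentiated libraries, a rise of 1.18 ± 0.281 (adjusted p = 0.00214). The states did not overlap in either mark. Over all CpG island regions the median change was 0.38 in 5hmC and 0.39 in listed 5mC. The 5mC call was lost without differentiated library 1 (adjusted p = 0.0629) and in DESeq2 (adjusted p = 0.0991).

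Opposite changes also sat inside these genes. In BMPR1B, chr4:95701601-95702000 had 0.707 ± 0.206 CPM of 5hmC in differentiated and 1.50 ± 0.272 CPM in undifferentiated cells (log2 fold change -1.16, adjusted p = 0.00110), a call lost without differentiated library 3 (adjusted p = 0.0548). In BMPR2, chr2:203423401-203423800 had 0.478 ± 0.275 CPM in differentiated and 1.35 ± 0.173 CPM in undifferentiated cells (-1.49, adjusted p = 0.000205). The BMPR2 region with the lowest p among those that rose, chr2:203258601-203259000, had 1.43 ± 0.294 CPM in differentiated and 0.658 ± 0.254 CPM in undifferentiated cells (1.05, adjusted p = 0.00197). That call was lost without differentiated library 3 (adjusted p = 0.0823).

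BMPR1A, the other type I BMP receptor of the set, differed less and in a mixed way. Its 5hmC was 57.0, 62.1 and 56.7 CPM in differentiated and 66.5, 65.0 and 68.7 CPM in undifferentiated libraries, with no overlap. It fell by 0.19 ± 0.0543 (adjusted p = 0.00951; 0.0564 in DESeq2), with 5 regions higher and 11 lower of 35. Single regions of the gene went opposite ways. The region chr10:88627601-88628200 had 1.61 ± 0.0783 CPM in differentiated and 0.587 ± 0.0764 CPM in undifferentiated cells (1.45, adjusted p = 5.46e-05). At chr10:88670801-88671000 the level was 0.347 ± 0.0102 CPM in differentiated and 1.22 ± 0.382 CPM in undifferentiated cells (-1.71, adjusted p = 0.000187). Its 5mC, 40.3 ± 1.44 CPM in differentiated and 38.1 ± 1.73 CPM in undifferentiated cells, did not pass (0.09, adjusted p = 0.268).

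Of the TGF-beta receptors, TGFBR1, the type I receptor, had 4 5hmC regions and no listed 5mC region; of all genes with 4 5hmC regions, 54.6% had a listed 5mC region. Its summed 5hmC was 6.51, 7.31 and 8.42 CPM in differentiated and 6.42, 6.91 and 4.70 CPM in undifferentiated libraries, which overlapped and did not pass (0.31, adjusted p = 0.0754). Its CpG island region 413 bases upstream of a start, chr9:101866201-101867000, had 3.38, 3.40 and 4.23 CPM in differentiated and 2.09, 2.51 and 1.45 CPM in undifferentiated libraries. There the states did not overlap, and the rise was 0.88 ± 0.178 (adjusted p = 0.000133). The median change of all 5hmC regions in CpG islands was 0.38.

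TGFBR2, the type II receptor, was level in 5hmC, with 27.3 ± 0.689 CPM in differentiated and 27.2 ± 0.377 CPM in undifferentiated cells (0.01 ± 0.0547, adjusted p = 0.932). Behind this sum 3 of its 15 regions were higher and 3 lower. Without TMM the change was -0.19 (adjusted p = 0.0488). The region chr3:30683201-30683600 had 2.15 ± 0.252 CPM in differentiated and 0.910 ± 0.270 CPM in undifferentiated cells (1.30, adjusted p = 4.55e-05). The region chr3:30672401-30673200 fell in both marks, by 1.03 in 5hmC (adjusted p = 0.000705) and by 0.98 in 5mC (adjusted p = 0.0109). The 5mC call there was lost without differentiated library 1 or 3 or undifferentiated library 1 and in DESeq2 (adjusted p = 0.188). The 5mC sum, 8.01 ± 2.18 CPM in differentiated and 9.42 ± 0.718 CPM in undifferentiated cells, did not pass (-0.26, adjusted p = 0.123). This sum passed as lower without TMM (-0.57, adjusted p = 0.000877) and with TMM on strong regions (-0.59, adjusted p = 0.000666).

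**Figure D3:**
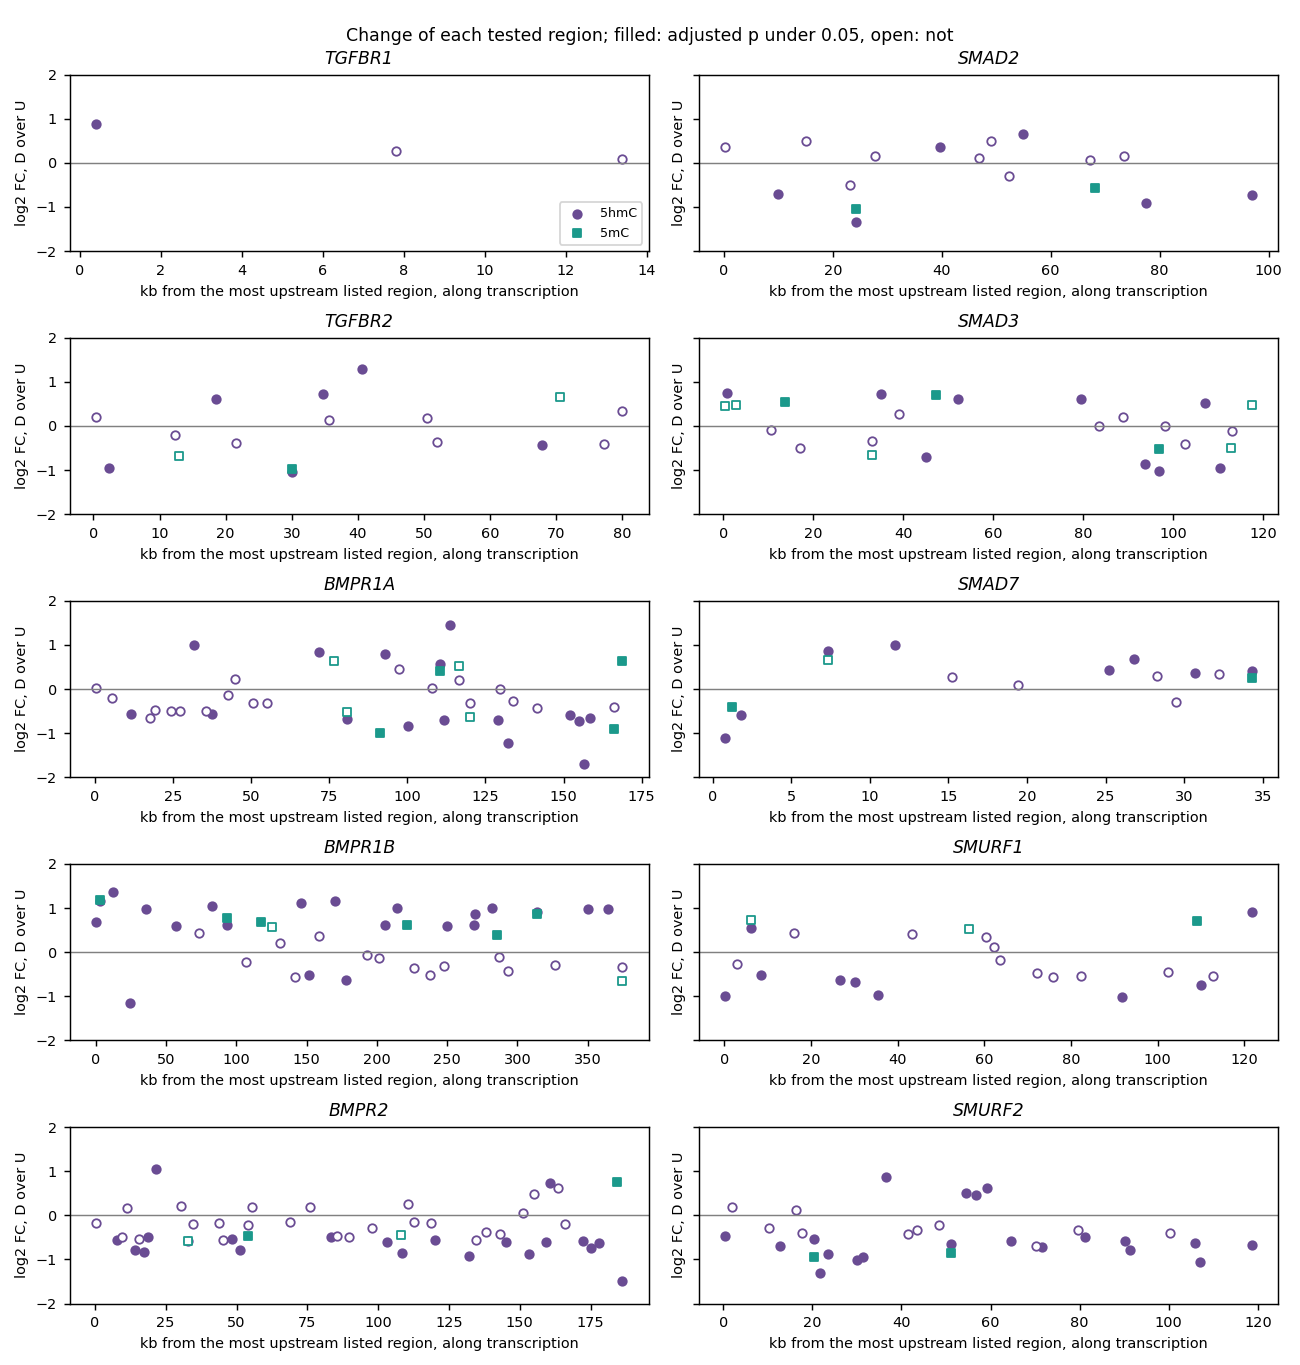
Log2 fold change (differentiated over undifferentiated) of each tested region against its distance in kb from the most upstream listed region, in the direction of transcription. Circles are 5hmC and squares 5mC; filled symbols passed. Filled circles lie mostly above 0 in BMPR1B (18 of 21) and mostly below 0 in BMPR2 (18 of 20) and SMURF2 (16 of 20).

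Among the SMADs, SMAD2 differed in 5mC. It had 9.17, 9.53 and 7.35 CPM in differentiated and 13.5, 14.2 and 13.00 CPM in undifferentiated libraries, with no overlap. It fell by 0.65 ± 0.138 on the log2 scale (adjusted p = 3.95e-05), which passed in every setting run. Both listed SMAD2 regions were lower, the one at chr18:45392201-45393000 by a call lost without differentiated library 3 (adjusted p = 0.0662). Its 5hmC, 38.0 ± 1.54 CPM in differentiated and 38.2 ± 1.47 CPM in undifferentiated cells, did not pass (-0.0028, adjusted p = 0.972). That result depended on scaling. SMAD2 5hmC passed as lower without TMM (-0.20, adjusted p = 0.0368) and with TMM on strong regions (-0.28, adjusted p = 0.00297). The 5mC region chr18:45436201-45436800 fell by 1.04 (adjusted p = 0.00403) and overlapped a 5hmC region that fell by 1.34. That 5mC call was lost without undifferentiated library 1 (adjusted p = 0.0528) and in DESeq2 (adjusted p = 0.1198).

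SMAD3, its partner on the same branch, had 47.7, 47.2 and 52.6 CPM of 5mC in differentiated and 40.7, 43.1 and 44.9 CPM in undifferentiated libraries. These did not overlap and gave 0.20 ± 0.0684 (adjusted p = 0.00698), which turned to -0.11 without TMM and was lost without differentiated library 3 (adjusted p = 0.0852). Its 5hmC did not pass (0.03, adjusted p = 0.713). The region chr15:67456001-67456800, inside SMAD3 and 1694 bases upstream of one of its internal starts, went down in both marks. Its 5hmC was 1.75, 1.34 and 1.72 CPM in differentiated and 3.96, 2.60 and 3.32 CPM in undifferentiated libraries (-1.03, adjusted p = 3.96e-05). Its 5mC was 4.73, 6.19 and 7.89 CPM in differentiated and 9.03, 8.41 and 9.66 CPM in undifferentiated libraries (-0.53, adjusted p = 0.0235). The states did not overlap, and the 5mC call was lost without differentiated library 1 or 2 or undifferentiated library 1 or 3 and in DESeq2 (adjusted p = 0.240).

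SMAD7, the inhibitory SMAD, showed opposite changes at an internal start and upstream of the gene. The region chr18:46474201-46474800, listed at a start but 2281 bases inside the gene's outermost one, had 1.47, 1.16 and 1.25 CPM of 5hmC in differentiated and 0.732, 0.627 and 0.785 CPM in undifferentiated libraries, a rise of 0.86 ± 0.277 (adjusted p = 0.00945). Its 5mC was 4.17, 4.13 and 4.23 CPM in differentiated and 3.77, 2.10 and 2.02 CPM in undifferentiated libraries, which did not overlap but did not pass (0.65, adjusted p = 0.0645). Upstream of the outermost start by 3720 bases, chr18:46480801-46481200 had 1.18, 1.07 and 1.16 CPM of 5hmC in differentiated and 2.60, 2.60 and 2.173 CPM in undifferentiated libraries, a fall of 1.11 ± 0.216 (adjusted p = 7.14e-05). The 5mC region across the same stretch, chr18:46479401-46481800, fell by 0.41 (adjusted p = 0.00289; 0.110 in DESeq2). Other 5hmC regions by internal starts differed in their calls. The region chr18:46469601-46470800, 424 bases upstream of a start, rose by 0.99 (adjusted p = 0.00108). At chr18:46465001-46468200, listed at a start, the change did not pass (0.26, adjusted p = 0.117). The 5hmC call at the internal start in chr18:46474201-46474800 was lost without differentiated library 1 (adjusted p = 0.05003) and in DESeq2 (adjusted p = 0.0683). It was also lost without TMM (adjusted p = 0.05005) and with TMM on strong regions (adjusted p = 0.0854).

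Within a library, the ratio of 5hmC counts at this internal SMAD7 start to those in both regions upstream of the outermost start was 0.531, 0.361 and 0.392 in differentiated cells, against 0.129, 0.111 and 0.173 in undifferentiated cells. In 5mC the ratio was 0.193, 0.210 and 0.227 in differentiated and 0.141, 0.0897 and 0.0686 in undifferentiated libraries. These ratios were also chosen after their values were seen. Summed over the gene, SMAD7 5hmC passed as higher (39.3 ± 3.33 CPM in differentiated and 34.6 ± 3.08 CPM in undifferentiated cells; 0.20, adjusted p = 0.0349), with overlapping states. The call was lost without differentiated library 1 or 3 or undifferentiated library 1 or 3 and in DESeq2, and the change turned to -0.0022 without TMM. SMAD7 5mC did not pass over all its regions (0.07, adjusted p = 0.252) and passed as higher over regions inside the gene (0.33, adjusted p = 0.000169). Over all its regions it passed as lower without TMM (-0.24, adjusted p = 0.000414) and with TMM on strong regions (-0.26, adjusted p = 0.000106).

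SMURF1 and SMURF2 are closely related HECT ubiquitin ligases, and their 5mC went opposite ways. SMURF1 had 19.7, 20.9 and 14.2 CPM of 5mC in differentiated and 14.4, 10.3 and 8.34 CPM in undifferentiated libraries, a rise of 0.71 ± 0.133 (adjusted p = 4.37e-06), with the lowest differentiated library just under the highest undifferentiated one. SMURF2 had 5.39, 7.71 and 9.22 CPM in differentiated and 14.2, 12.4 and 13.6 CPM in undifferentiated libraries, a difference of -0.85 ± 0.148 (adjusted p = 8.59e-07). The SMURF2 states did not overlap. Both of its listed regions fell, chr17:62643401-62644400 by 0.95 (adjusted p = 0.000477) and chr17:62612601-62613400 by 0.86 (adjusted p = 0.00306), and both coincide with 5hmC regions that fell by 0.53 and 0.65. The second call was lost without differentiated library 1 (adjusted p = 0.0713) and in DESeq2 (adjusted p = 0.113).

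In 5hmC, SMURF2 had 45.2, 49.3 and 45.3 CPM in differentiated and 60.6, 56.4 and 58.6 CPM in undifferentiated libraries. It fell by 0.34 ± 0.0553 (adjusted p = 0.000325), which passed in every setting run, as did that of BMPR2. Of its 30 regions 4 were higher and 16 lower. The region chr17:62642201-62642800 had 0.839 ± 0.197 CPM in differentiated and 2.10 ± 0.736 CPM in undifferentiated cells (-1.30, adjusted p = 8.05e-05). SMURF1 had 37.8, 38.2 and 39.4 CPM in differentiated and 44.5, 41.3 and 42.7 CPM in undifferentiated libraries (-0.15, adjusted p = 0.0269). The SMURF1 call was lost without differentiated library 1 or undifferentiated library 1 or 3 and in DESeq2 (adjusted p = 0.156).

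Of the 20 SMURF1 regions 2 were higher and 7 lower in 5hmC, and the region at the start was among the higher. This region, chr7:98739801-98741200, began 543 bases downstream of the outermost start and had 11.4, 11.5 and 9.96 CPM of 5hmC in differentiated and 7.38, 7.28 and 7.79 CPM in undifferentiated libraries, a rise of 0.54 ± 0.147 (adjusted p = 0.00257; 0.121 with TMM on strong regions). At chr7:98654401-98655400, inside the gene, the level was 1.49 ± 0.291 CPM in differentiated and 3.14 ± 0.230 CPM in undifferentiated cells (-1.01, adjusted p = 5.70e-05). As a ratio to the counts of its other regions, chosen after its values were seen, the start held 0.427, 0.425 and 0.336 in differentiated and 0.200, 0.219 and 0.222 in undifferentiated libraries. The listed 5mC region at the start did not pass (0.72, adjusted p = 0.0707).

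Of the 11 5hmC regions at a start or within 2000 bases upstream of one, 6 were higher and 1 lower, with a background of 27.8% and 19.5%. The 6 came from BMPR1B, SMAD7, TGFBR1 and SMURF1, with a pair each from BMPR1B and SMAD7. The counts and background are for TMM scaling as reported. The call 1529 bases upstream of the BMPR1B start (0.68, adjusted p = 0.0210) was lost in DESeq2 (adjusted p = 0.110). It was also lost without differentiated library 3 or undifferentiated library 1 or 2. Without TMM (adjusted p = 0.118) and with TMM on strong regions (adjusted p = 0.199) it did not pass either. As given above, calls at SMAD7 and SMURF1 regions were also lost under other scalings. Of 4 such regions in 5mC 1 was higher and 1 lower, with a background of 40% and 33.4%.

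**Figure D4:**
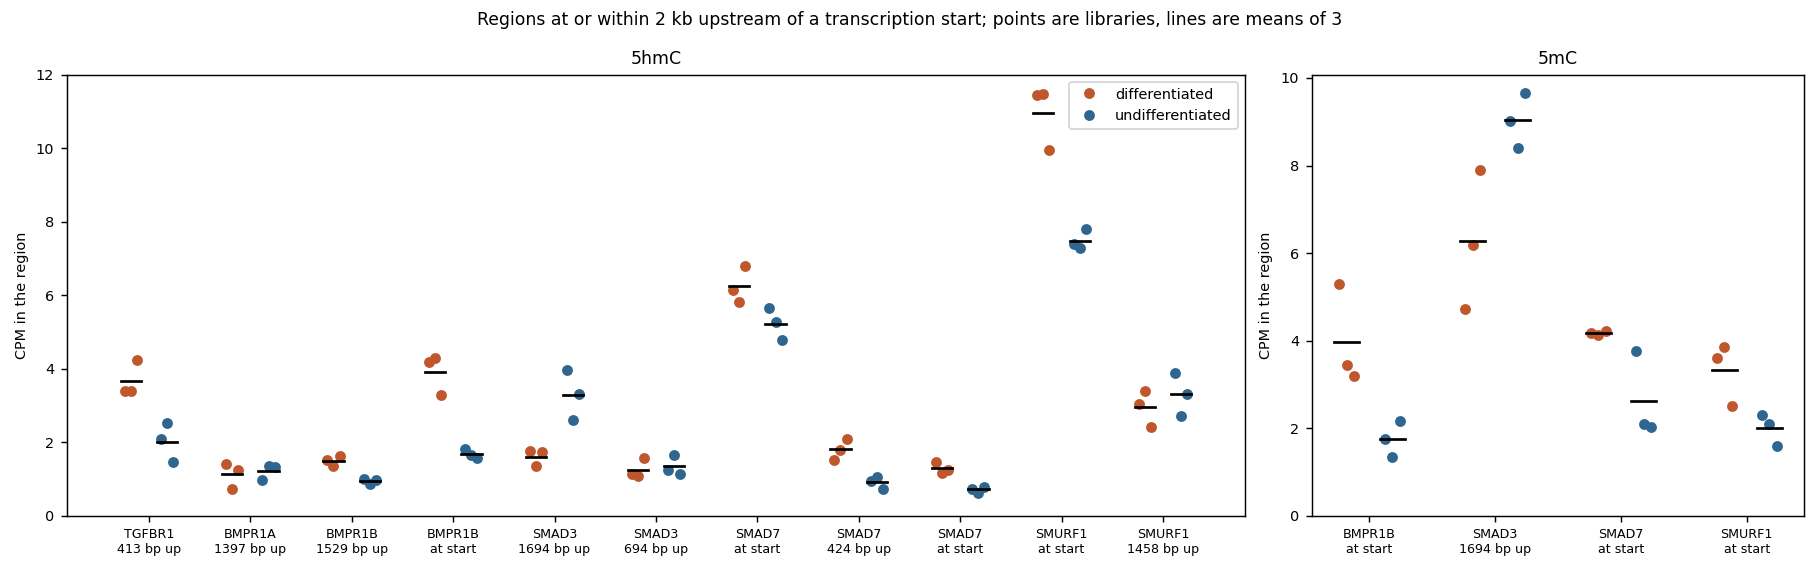
CPM (vertical axis, from 0) of each region at a start or within 2 kb upstream of one, 5hmC left and 5mC right, with the deposited distance to the start under the gene name (at start means a distance of 0). Points are libraries, differentiated left and undifferentiated right of each pair, and lines are means of 3. Regions differ in width, so heights do not compare between genes. The 3 differentiated libraries lie above the 3 undifferentiated ones at the 5hmC regions of TGFBR1, BMPR1B and SMAD7 and at the start of SMURF1.

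The marks shared DNA in shares near those of the whole tables. Of the 41 listed 5mC regions of the genes, 26 (63.4%) shared a base with a 5hmC region, against 67.8% of all listed 5mC regions. In the other direction, 27 of 231 5hmC regions (11.7%) shared a base with a listed 5mC region, against 14.3% of all. Of the 27 overlapping pairs of the genes, 26 (96.3%) changed with the same sign in both marks. Of all 47289 overlapping pairs 91.9% did, so a shared direction is common across the tables. By the deposited distances 3 of the 5hmC regions (1.3%) lay in CpG islands, 12 (5.2%) on shores within 2000 bases of one and 216 (93.5%) in neither. Of all 5hmC regions 1.7%, 5.7% and 92.6% did. The median change of all 5hmC regions was 0.38 in islands, 0.04 on shores and -0.06 in neither. Of all listed 5mC regions it was 0.39, 0.27 and -0.32.

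Other genes of the pathway, 100 in all, were looked up for comparison. In 5hmC, 89 were found, of which 21 were higher, 22 lower and 46 did not pass. The shares higher and lower, 23.6% and 24.7%, were near those of all genes, 25.7% and 25.8%. The largest rises that passed were at CHRDL1, a BMP antagonist (0.74), ID4, a BMP target (0.69), the ligand gene GDF6 (0.67) and HFE2, a BMP co-receptor (0.58). The ID4 call, on 1 region, was lost without TMM, with TMM on strong regions, with the replicate block and in DESeq2. It was also lost without any 1 library but differentiated library 2 (highest adjusted p = 0.198). The largest falls were at the ligand gene GDF9 (-1.20), BAMBI, a decoy receptor (-1.15), ID3, a BMP target (-0.98), and the ligand gene GDF15 (-0.75). GDF9, BAMBI and ID3 had 1 region each, at low levels. These were 0.533, 0.602 and 0.565 CPM in differentiated and 1.05, 1.53 and 1.08 CPM in undifferentiated cells. The ID3 call was lost without differentiated library 3 (adjusted p = 0.0896) and in DESeq2 (adjusted p = 0.0534). In 5mC, 50 were listed, of which 20 were higher, 22 lower and 8 did not pass. The shares, 40% and 44%, were near those of all listed genes, 41% and 43.2%. The largest rises that passed were at the receptor genes ACVRL1 (0.99) and ACVR2A (0.88) and the ligand genes GDF3 (0.85) and BMP2 (0.83). The ACVR2A call was lost with TMM on strong regions (adjusted p = 0.0549). The BMP2 call was lost under both other scalings and without differentiated library 3 or undifferentiated library 1 (highest adjusted p = 0.119). The largest falls were at TAB2 (-0.91), SMAD4, the common partner of SMAD2 and SMAD3 (-0.78), the ubiquitin ligase gene WWP1 (-0.78) and the deubiquitinase gene UCHL5 (-0.74). ACVRL1, ACVR2A, GDF3, BMP2 and UCHL5 had 1 listed region each. The UCHL5 call was lost without differentiated library 1 or undifferentiated library 2 (highest adjusted p = 0.0904) and in DESeq2 (adjusted p = 0.0502). By role in 5mC, 7 ligand genes were higher and 3 lower of 14, 4 receptors and co-receptors higher and 3 lower of 9, and 2 SMADs and partners higher and 2 lower of 5. Antagonists and repressors had 6 higher and 3 lower of 9, ubiquitin and phosphatase regulators 1 and 7 of 9, and targets and effectors 0 and 4 of 4. In 5hmC the same roles had 7 higher and 5 lower of 28, 7 and 5 of 17, 0 and 2 of 8, 4 and 3 of 18, 2 and 5 of 11, and 1 and 2 of 7, in that order. The background for each role is the share of all genes given above for its mark. The counts by role are a description and were not tested.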

How the data were processed

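Tools listed in the submitters' processing notes are SICER 1.1, edgeR 2.11, bedtools 2.17.0, SAMtools 0.1.18 and BWA with no version; the build is hg19 and roles are not stated. For each mark the authors deposited raw read counts per enriched region for 6 libraries. The deposited log2 fold change runs undifferentiated over differentiated and was not used. The authors' deposited p-value and adjusted p-value served only to size the 5mC list, which implies 328588 tests. Distances to genes, starts and CpG islands are per the file headers. Where a region at distance 0 lay was worked out from starts to which at least 3 upstream regions of the same promoter pointed, or, for the 10 genes, from the regions upstream of the gene. Blank counts removed 18 of the 327949 regions listed for 5hmC.

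The tests used edgeR 4.0.16 under R 4.3.3 (filterByExpr, TMM, quasi-likelihood F test, Benjamini-Hochberg adjustment over the whole table, threshold 0.05), limma 3.58.1, DESeq2 1.42.0, and version 1.17.8 of data.table. Adjustment of 5mC regions ran over the implied tests, and that of 5mC genes over the listed genes alone. The spread of the selected 5mC list can still make its p-values too small. Counts per gene were summed over its regions. Standard errors are the absolute fold change over the root of F. The fit was tested on simulated counts with a common spread, where 100 features of a table were changed by each fold. For 2-fold changes it recovered 96% of 5hmC genes and 55% of 5hmC regions. Many more features were called in the data, so these shares do not give the recovery there.

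The rule for named items took all 10 genes, per gene and mark the region with the lowest p in each direction and that with the highest CPM per kb, regions near starts, and the 4 pathway genes per mark and direction with the largest change. Members and lists were chosen with earlier results of these data known. Alternative scalings were library totals without TMM, TMM on strong regions and relative log expression scaling. Further alternatives were DESeq2, no filter, a replicate block, each library left out, and other rules for a gene's regions. RefSeq names pseudogene copies of TGFBR1, BMPR1A and SMURF2; for reads that match them, the counting rule is not given in the sources.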

Additional observations from a re-analysis of the deposited data

How the results depend on the processing

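Scaling and DESeq2 both moved the counts. Without TMM, 46026 5hmC regions were higher and 118325 lower, among them 26 higher of the 10 genes' regions; 1591 genes were higher and 8545 lower, with 0 of the 10 higher; and 5 pathway genes were higher and 37 lower. With TMM on strong regions the values were 33312 and 134429 regions, 22 and 121 of the 10 genes' regions, 964 and 10454 genes, 0 and 7 of the 10 genes, and 4 and 45 pathway genes. In 5mC without TMM, 2494 regions and 1405 genes were higher, with 2 higher and 18 lower of the 10 genes' regions, 6 of the genes lower and 5 pathway genes higher. On strong regions these were 1987, 1139, 2, 18, 6 and 3. DESeq2 called 43228 5hmC regions higher and 23256 lower, 27 and 26 of the 10 genes' regions, and 1 and 2 of the genes. In 5mC it called 1954 regions higher and 1454 lower, 0 and 1 of the 10 genes' regions, and 13 pathway genes lower. Adjusting over the listed 5mC regions alone gave 23 higher and 18 lower of the 10 genes' regions. Regions within 2000 bases of the start gave 6 and 1 in 5hmC and 1 and 1 in 5mC, with 1 gene lower in 5hmC and 1 gene higher and 1 lower in 5mC.

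Leaving out 1 library gave 57391 to 90314 5hmC regions higher and 43359 to 78417 lower, 31 to 50 and 40 to 68 of the 10 genes' regions, and 1 to 3 genes higher. In 5mC it gave 14128 to 15162 regions higher and 14946 to 15539 lower, and 5 to 10 of the 10 genes' regions higher.

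Changes turned in these settings. Without TMM they were, for 5hmC, TGFBR2 -0.19 and SMAD7 -0.0022, and for 5mC BMPR1A -0.22, SMAD3 -0.11 and SMAD7 -0.24. On strong regions they were TGFBR2 -0.27, SMAD3 -0.25 and SMAD7 -0.081 in 5hmC, and BMPR1A -0.25, SMAD3 -0.13, SMAD7 -0.26 and the SMAD7 region chr18:46446601-46448400 -0.022 in 5mC. Near starts they were SMAD3 -0.77 and SMURF1 0.25 in 5hmC and SMAD3 -0.65 in 5mC. The cause was not tested.

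With replicate number as a block, 1 of the 10 genes was higher in 5hmC: SMAD7 (0.19, adjusted p = 0.0885) and SMURF1 (-0.16, adjusted p = 0.0612) no longer passed. Same-numbered libraries did not deviate together (correlations 0.000537, -0.0978 and -0.101 in 5hmC and 0.0115, 0.00576 and -0.00968 in 5mC). The labels give only a replicate number. Noise in single regions can hide a shared batch, so these values do not settle whether libraries were paired. Of 1093 other values, 915 kept direction and call. In the simulation, with the depth of these libraries and few changed features, 1.5-fold changes were recovered for 7% of 5hmC regions and 31% of 5mC regions. The simulation did not select its 5mC regions by p-value, and these shares do not give the recovery in the data.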
